A study of Mus musculus with 6 samples.

Results

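Aminoacyl-tRNA synthetases attach each amino acid to its matching tRNA, and the 36 genes described here encode 20 cytosolic and 16 mitochondrial members of that family in the mouse. The genes were chosen with earlier results of these data known. They were sorted by name alone: a symbol ending in 2 was counted as mitochondrial and the others as cytosolic. All 36 were matched to a row of the deposited table of 27998 genes. They were followed through single-cell RNA libraries of monolayers that had been differentiated from intestinal organoids. The libraries form 3 groups with 2 biological replicates each, namely a vehicle group (DMSO) and groups kept for 13 h or 25 h in 0.5 µg/ml of tunicamycin. This drug blocks N-linked glycosylation, which lets unfolded glycoproteins build up in the endoplasmic reticulum (ER). Treatment began on differentiation day 3, the 13 h set was first kept in DMSO, and all sets were collected on the morning of day 4. All groups, controls included, carry a Rosa26-floxed STOP-Cas9 allele and cmv-cre on B6. The growth protocol names colonic spheroids whereas small intestine is given as tissue, and which of them holds is not known here. Dead cells had been removed with a kit, so the values describe the cells that survived. No age of the source animals is stated.

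A cytosolic synthetase charges tRNAs for the ribosomes that translate nuclear messages, and several of these enzymes sit in a multisynthetase complex held together by scaffold proteins. A mitochondrial synthetase is made in the cytosol from a nuclear gene, is imported, and charges the tRNAs of the mitochondrial genome. In most cases a separate gene serves each compartment, but Gars and Kars each supply both compartments, Eprs charges both glutamate and proline tRNAs, and phenylalanine needs the Farsa and Farsb subunits in the cytosol against the single Fars2 in mitochondria. Mitochondria have no synthetase of their own for glutamine: glutamate is first attached to that tRNA and then converted by a transamidase. Under ER stress the kinase PERK phosphorylates the initiation factor eIF2, which slows translation in general while the transcription factor ATF4 is translated. ATF4 is known to bind composite C/EBP-ATF elements in the promoters of genes for amino acid supply, cytosolic synthetases among them.

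Promoter sequences of members that carry such letters are shown first, as a description; no link between them and the changes below was tested. RefSeq promoter windows on GRCm38.p6, which run from 250 bases before to 50 bases after a gene's annotated start, were used for 11 of the 20 cytosolic and 14 of the 16 mitochondrial genes. The core TGATGNAA, searched on both strands, occurred in 4 of the 11 cytosolic windows and in 0 of the 14 mitochondrial genes (15 windows), and in 4.51% of the 27025 genes with a window. Its stricter form TGATGCAA, which is contained in the first motif, occurred in 3 of the 11 (Iars, Tars and Yars), against 1.03% of all genes. A match is a description of these letters and not a binding site that was measured. The element of each gene is printed 5′ to 3′ on the strand of the gene, with the matched letters in capitals; TTGCATCA and TTTCATCA are the core read on the other strand.

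Gars, chr6:55037960-55037989, plus strand: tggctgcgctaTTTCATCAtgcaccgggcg
Iars, chr13:49682126-49682155, plus strand: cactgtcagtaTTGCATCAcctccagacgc
Tars, chr15:11399659-11399684, minus strand: caggagtcccgTTGCATCAgctggtt
Yars, chr4:129189895-129189924, plus strand: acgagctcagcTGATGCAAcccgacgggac

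In Gars the element began 30 bases before the RefSeq start and in Tars 15 bases before it, while those of Iars and Yars began at the bases numbered 8 and 4 counted from the start. The other motifs searched were TGACGTG, the core of the element bound by XBP1 and ATF6, and GCGCANGCG, the core bound by NRF1, a regulator of nuclear genes for mitochondria. TGACGTG was found in 1 of the 11 cytosolic windows, that of Eprs, in 0 of the 14 mitochondrial genes and in 2.22% of all genes. The Eprs element lay 9 bases before the start:

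Eprs, chr1:185363024-185363043, plus strand: gcgcatatttaTGACGTGtc

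GCGCANGCG was found in 3 cytosolic windows (Farsb, Kars and Tars), in the windows of 4 mitochondrial genes (Iars2, Mars2, Vars2 and Wars2) and in 7.03% of all genes.

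The libraries held between 9462248 and 19772274 unique molecular identifiers (UMIs, each counting a captured RNA molecule), with a median of 14395 to 17244 per cell. After removal of 96 of 5122 cells for a high mitochondrial share of UMIs, 5026 remained. The authors' classes gave 426 to 1046 enterocytes (absorptive cells), 75 to 109 goblet cells (mucus-secreting cells) and 12 to 27 tuft cells (chemosensory cells) per library. Summed levels of the goblet markers were 76433 to 214003 CPM (UMIs of a gene scaled to library size) in goblet cells and 2361 to 4013 CPM in enterocytes. All 10 enterocyte markers had a UMI in enterocytes, and 7 had enough UMIs there to be tested. In DMSO they summed to 6252 and 6492 CPM in enterocytes. Their DMSO sums were 3243 and 3834 CPM in goblet cells and 820 and 4704 CPM in the tuft class. Of the 3 immune markers Ptprc and Cd3e had no UMI in any class. Lyz2 was at most at 0.489 CPM in enterocytes and 1.68 CPM in goblet cells. Within enterocytes the enterocyte markers fell from 6252 and 6492 CPM in DMSO to 4099 and 4355 CPM at 13 h and 3162 and 3244 CPM at 25 h; their part in the results below was not tested. A lower level per cell and the loss of the cells that held most of an RNA cannot be told apart in such sums. UMIs were summed per library within a class and compared with edgeR's quasi-likelihood test with Benjamini-Hochberg adjustment over all genes tested, and a gene is said to rise or fall only at an adjusted p below 0.05. Fold changes are given on the log2 scale with the standard error of the fit (SE, n = 2 libraries per group).

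In enterocytes after 13 h of tunicamycin, 19 of the 20 cytosolic synthetase genes rose and 0 fell, with a median log2 fold change of 1.22 against 0.01 over all 11145 genes tested. Of all genes tested 23.8% rose and 23.8% fell, so the cytosolic count lay far above the share over all genes. Of the 16 mitochondrial genes 3 rose and 0 fell, a share of higher genes near that background, with a median of 0.19. No cytosolic gene was lower at an unadjusted p under 0.05 or by DESeq2, and 1 mitochondrial gene was lower at an unadjusted p under 0.05 and 0 by DESeq2. The fold change was at least 2-fold for 13 cytosolic genes and for 0 mitochondrial genes. The mitochondrial estimates were less precise, with a median SE of 0.21 against 0.08. Even so, the estimate plus 2 SE stayed below the cytosolic median in 15 of 16 mitochondrial genes. Cytosolic genes with small changes, such as Kars, Qars and Dars, lay below that median in the same way.

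**Figure D1:**
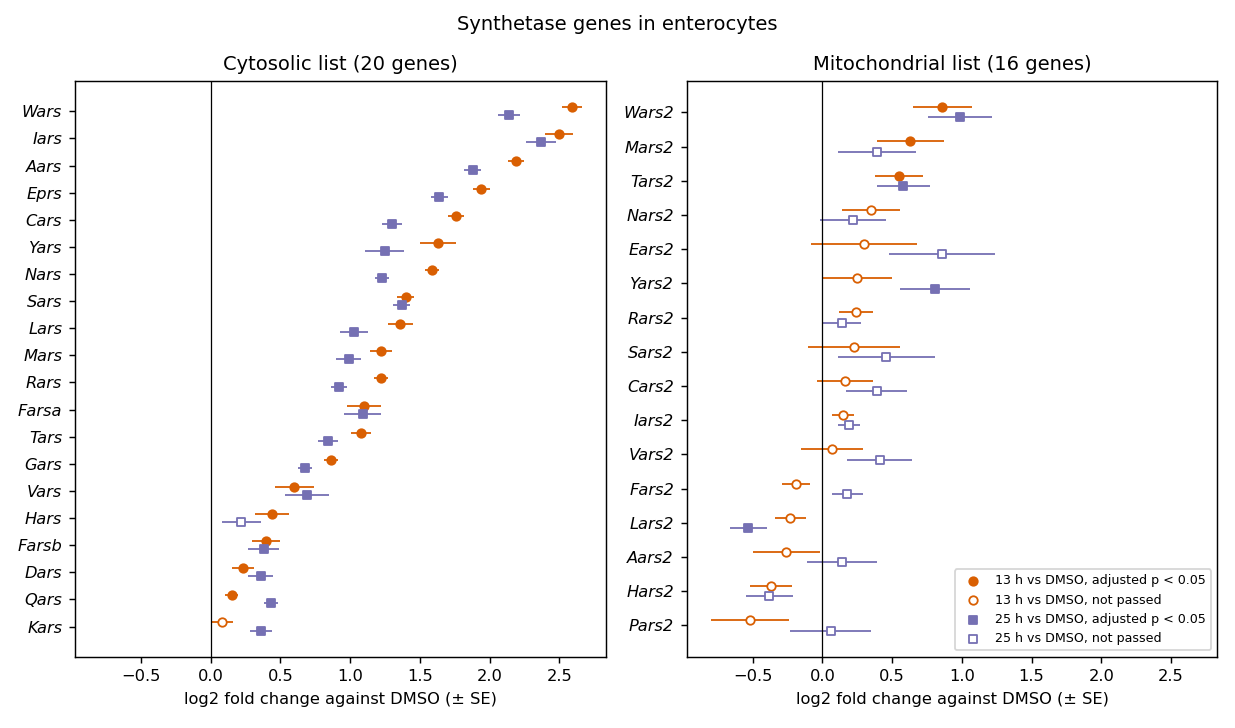
Log2 fold change against DMSO (x axis, bars are ± SE) of each cytosolic (left) and mitochondrial (right) synthetase gene in enterocytes at 13 h (circles) and 25 h (squares), ordered by the 13 h value; filled symbols passed the adjusted p threshold. The cytosolic genes run from 0.08 for Kars to 2.59 for Wars at 13 h, and the mitochondrial genes from -0.52 for Pars2 to 0.86 for Wars2.

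The tryptophan enzyme gene Wars was the cytosolic member that rose most. Its level in enterocytes was 18.2 and 17.7 CPM in DMSO, 108 CPM in both 13 h libraries, and 72.6 and 85.7 CPM at 25 h. All 4 treated libraries were thus far above both controls, and the 25 h libraries below those at 13 h. The log2 fold change was 2.59 ± 0.07 at 13 h (edgeR, adjusted p = 2.47e-12), a 6.03-fold rise.

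Iars, for isoleucine, followed closely. It was at 5.69 and 7.21 CPM in DMSO, 35.5 and 37.5 CPM at 13 h, and 32.6 and 33.9 CPM at 25 h, from 97 UMIs in the DMSO library with fewest to 498 in the 13 h library with most. Treated and control libraries did not overlap, and the rise at 13 h was 5.66-fold (2.50 ± 0.10, edgeR, adjusted p = 9.59e-11).

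Aars, whose product charges alanine tRNA, stood at 31.1 and 34.9 CPM in DMSO, at 150 CPM in both 13 h libraries, and at 119 and 124 CPM at 25 h. The replicates lay close together, and each treated group was above the controls by several times their spread (2.19 ± 0.06 at 13 h, edgeR, adjusted p = 1.46e-12). Eprs, the bifunctional glutamate and proline enzyme and the gene with the XBP1-type letters shown above, gave 26.8 and 29.1 CPM in DMSO, 109 and 105 CPM at 13 h, and 87.1 and 86.6 CPM at 25 h. It rose 3.83-fold at 13 h (1.94 ± 0.06, edgeR, adjusted p = 3.78e-12).

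Cars, the cysteine enzyme gene, rose from 22.8 and 23.2 CPM to 75.3 and 80.4 CPM at 13 h (1.76 ± 0.06, edgeR, adjusted p = 4.5e-11). Log2 fold changes at 13 h were 1.63 for Yars (tyrosine), 1.59 for Nars (asparagine), 1.40 for Sars (serine), 1.36 for Lars (leucine), 1.22 for Rars (arginine), 1.10 for Farsa (phenylalanine, catalytic subunit) and 1.08 for Tars (threonine), and each of these genes rose. Mars, for methionine, rose by 1.22 ± 0.08. The annotated 3′ end of Mars overlaps that of Ddit3, the gene of the stress factor CHOP, on the opposite strand over 68 bases (chr10:127296221-127296288, mm10). Ddit3 itself rose 17.2-fold in enterocytes at 13 h. The sources used here do not say whether counting used strand. Whether reads of Mars and of Ddit3 over those bases were counted apart is thus not known here.

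The next genes serve both compartments or have no mitochondrial partner. Gars, the glycine enzyme of both compartments and a gene with the composite letters shown above, was at 133 and 125 CPM in DMSO, 232 and 235 CPM at 13 h, and 202 and 212 CPM at 25 h. The groups did not overlap, and the rise at 13 h was 1.81-fold (0.86 ± 0.05, edgeR, adjusted p = 3.89e-09). Kars, the lysine enzyme of both compartments, gave 24.9 and 22.8 CPM in DMSO, 24.7 and 25.6 CPM at 13 h, and 31.0 and 30.1 CPM at 25 h. The 13 h libraries overlapped the controls, and Kars was the cytosolic gene that did not pass at 13 h (0.08 ± 0.08, edgeR, adjusted p = 0.43). Qars, for glutamine, was at 65.2 and 63.3 CPM in DMSO, 71.2 and 71.5 CPM at 13 h, and 88.4 and 84.8 CPM at 25 h. Its rise at 13 h was small (0.15 ± 0.05, edgeR, adjusted p = 0.0257) and was lost without any of DMSO replicate 1 (adjusted p = 0.0893), DMSO replicate 2 (0.206), 13 h replicate 1 (0.114), 13 h replicate 2 (0.154) or 25 h replicate 1 (0.0526).

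The rises of 4 more cytosolic genes were modest, and their calls were lost when certain single libraries were left out. Each such fit leaves 1 library in a group, so a lost call does not show that a single library carried the rise. Dars, for aspartate, rose by 0.23 ± 0.08 at 13 h (edgeR, adjusted p = 0.0409), which was lost without DMSO replicate 1 (0.204), DMSO replicate 2 (0.116), 13 h replicate 2 (0.385) or 25 h replicate 1 (0.0606). Farsb, the second phenylalanine subunit, rose by 0.40 ± 0.10 (adjusted p = 0.00502), lost without DMSO replicate 1 (0.0677) or 13 h replicate 2 (0.122). Hars, for histidine, rose by 0.44 ± 0.12 (adjusted p = 0.00992), lost without DMSO replicate 1 (0.165) or 13 h replicate 1 (0.117). Vars, for valine, rose by 0.60 ± 0.14 (adjusted p = 0.0033), lost without DMSO replicate 2 (0.0559) or 13 h replicate 2 (0.0739). With DESeq2, 15 cytosolic genes rose in this comparison. Besides Mars, the annotated 3′ ends of Farsb, Yars, Cars2, Fars2, Iars2 and Vars2 overlap another gene on the opposite strand, so the same uncertainty over strand applies to them.

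**Figure D2:**
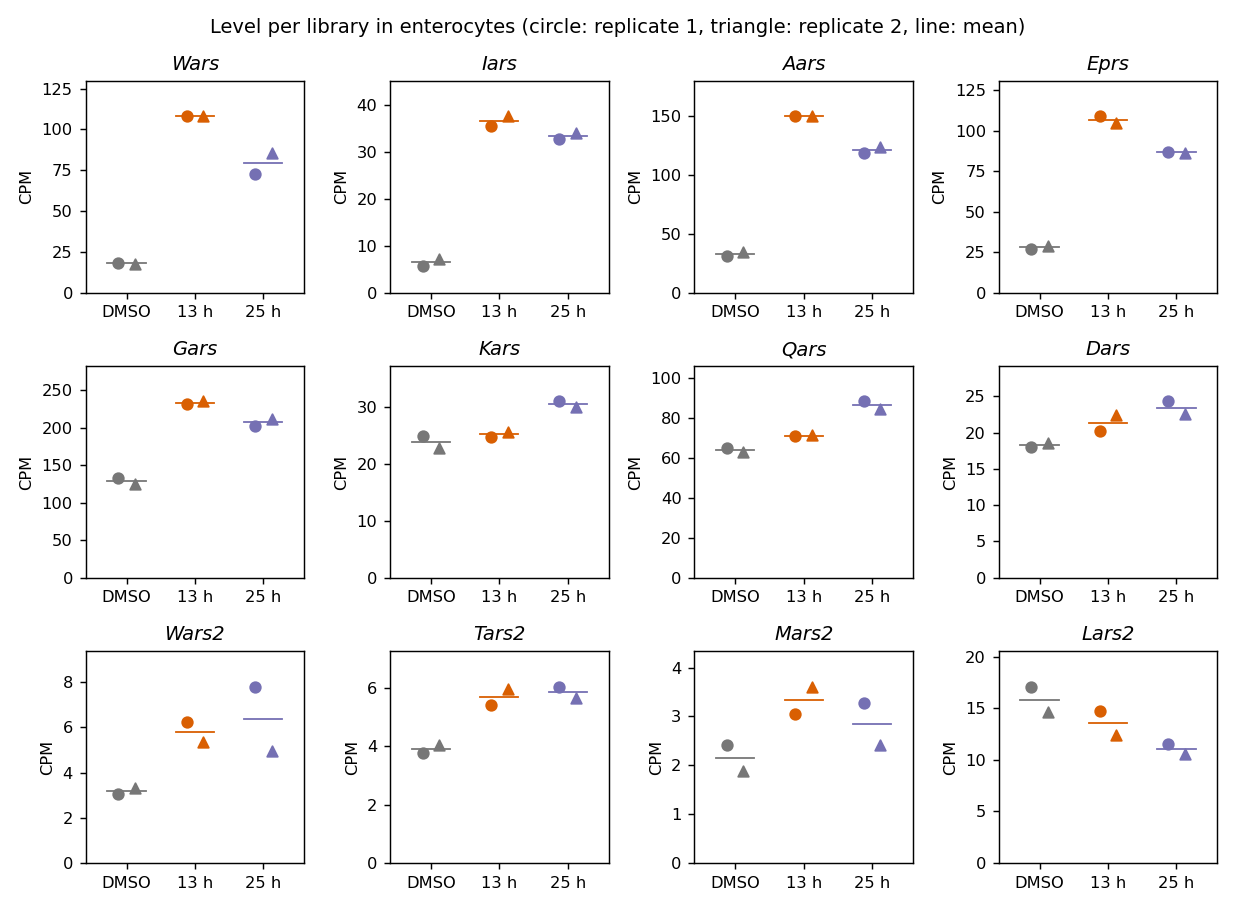
Level per library in enterocytes (y axis, CPM from 0) for 12 synthetase genes in DMSO, 13 h and 25 h of tunicamycin; circles are replicate 1, triangles replicate 2 and lines group means. Wars moves from 18.2 and 17.7 CPM to 108 CPM in both 13 h libraries, whereas the Kars libraries at 13 h overlap the controls and Lars2 is lowest at 25 h.

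Among the mitochondrial genes, Wars2, the partner of Wars, rose at 13 h. Its level was 3.05 and 3.30 CPM in DMSO, 6.25 and 5.34 CPM at 13 h, and 7.81 and 4.96 CPM at 25 h, from 43 to 76 UMIs per library. All treated libraries were above the controls, and the 25 h pair was wide apart (0.86 ± 0.21 at 13 h, edgeR, adjusted p = 0.00404). Tars2, for threonine, was at 3.76 and 4.03 CPM in DMSO, 5.42 and 5.94 CPM at 13 h, and 6.04 and 5.65 CPM at 25 h. All treated libraries were above both controls, but the call at 13 h (0.55 ± 0.17, edgeR, adjusted p = 0.0157) was lost without DMSO replicate 1 (0.0938) or 13 h replicate 2 (0.12). Mars2, for methionine, was at 2.41 and 1.89 CPM in DMSO, 3.04 and 3.61 CPM at 13 h, and 3.27 and 2.42 CPM at 25 h. The 13 h libraries were above the controls, from 31 to 48 UMIs each. Its call (0.63 ± 0.24, edgeR, adjusted p = 0.0447) was lost without DMSO replicate 1 (0.0625), DMSO replicate 2 (0.245), 13 h replicate 1 (0.0667), 13 h replicate 2 (0.268) or 25 h replicate 1 (0.054). With DESeq2, 1 mitochondrial gene passed at 13 h.

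The other 13 mitochondrial genes did not pass at 13 h. Their log2 estimates were positive for Nars2 (0.35), Ears2 (0.30), Yars2 (0.25), Rars2 (0.24), Sars2 (0.23), Cars2 (0.16), Iars2 (0.15) and Vars2 (0.07), and negative for Fars2 (-0.19), Lars2 (-0.23), Aars2 (-0.26), Hars2 (-0.37) and Pars2 (-0.52). Iars2, counted by 366 to 443 UMIs in DMSO and 13 h libraries, shows how tightly such a value could be held: 25.8 and 27.1 CPM in DMSO against 31.5 and 27.5 CPM at 13 h (0.15 ± 0.08). At the other end, Ears2 had 15 to 19 UMIs in those libraries and an SE of 0.38, so a change of moderate size was not detectable at this depth.

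After 25 h, again in enterocytes and against the same DMSO libraries, 19 cytosolic genes rose and 0 fell, with a median of 1.01 against 0.03 over all genes, of which 26.1% rose and 24.2% fell. No cytosolic gene was lower at an unadjusted p under 0.05 or by DESeq2. The highest values were those of Iars (2.37 ± 0.11), Wars (2.14 ± 0.08), Aars (1.88 ± 0.06) and Eprs (1.64 ± 0.06). The next were Sars (1.37), Cars (1.30), Yars (1.25), Nars (1.23), Farsa (1.09), Lars (1.03), Mars (0.99), Rars (0.92), Tars (0.84), Vars (0.69), Gars (0.68) and Qars (0.43). Farsb (0.38), Dars (0.36) and Kars (0.36) rose less. The gene that did not pass was Hars (0.22 ± 0.14, edgeR, adjusted p = 0.218). The Dars call was lost without 25 h replicate 1 (adjusted p = 0.065), and that of Farsb without DMSO replicate 1 (0.0946) or 25 h replicate 1 (0.131).

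Of the mitochondrial genes 3 rose and 1 fell at 25 h, with a median of 0.31. Of all genes 26.1% rose and 24.2% fell, so neither mitochondrial count was above the share over all genes. Wars2 was at 0.99 ± 0.23 (edgeR, adjusted p = 0.0024), lost without 25 h replicate 1 (0.62, adjusted p = 0.0803). Yars2, for tyrosine, was at 3.11 and 1.96 CPM in DMSO and 4.66 and 4.27 CPM at 25 h (0.81 ± 0.25, adjusted p = 0.0163), lost without DMSO replicate 2 (0.49, adjusted p = 0.138) or 25 h replicate 1 (adjusted p = 0.0977). Tars2 was at 0.58 ± 0.19 (adjusted p = 0.0173), lost without DMSO replicate 1 (0.0851), 25 h replicate 1 (0.108) or 25 h replicate 2 (0.0537). The member that fell was Lars2, for leucine: 17.1 and 14.6 CPM in DMSO, 14.7 and 12.4 CPM at 13 h, and 11.5 and 10.6 CPM at 25 h. Both 25 h libraries were below both controls, and the 13 h libraries overlapped them (-0.53 ± 0.13 at 25 h, adjusted p = 0.00428), while the cytosolic Lars rose by 1.03 ± 0.10. Leaving out single libraries did not end the Lars2 call, which was lost with thinned cells (adjusted p = 0.228). Those that did not pass at 25 h were Ears2 (0.86 ± 0.38), Sars2 (0.46), Vars2 (0.41), Cars2 (0.39), Mars2 (0.39), Nars2 (0.22), Iars2 (0.19), Fars2 (0.18), Aars2 (0.14), Rars2 (0.14), Pars2 (0.06) and Hars2 (-0.38). The estimate plus 2 SE was below the cytosolic median in 12 of the 16.

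Between 13 h and 25 h, 11 cytosolic genes fell, 2 rose and 7 did not pass, with a median of -0.22 against 0.00 over all genes, of which 10.4% rose and 10.9% fell. Those that fell were Cars (-0.46 ± 0.06, edgeR, adjusted p = 1.39e-04), Wars (-0.45 ± 0.07), Yars (-0.38), Nars (-0.36), Lars (-0.33), Aars (-0.31), Eprs (-0.30), Rars (-0.30), Tars (-0.25), Mars (-0.23) and Gars (-0.17). The pair that rose was Kars (0.28 ± 0.08, adjusted p = 0.0269) and Qars (0.28 ± 0.05, adjusted p = 0.00206), the members that had moved least at 13 h. Iars (-0.13), Farsa (-0.01), Farsb (-0.01), Sars (-0.03), Hars (-0.22), Vars (0.09) and Dars (0.13) did not pass. Of the falls, 5 ended without a single library: Mars without each of the 6 libraries in turn (adjusted p up to 0.215), Yars without DMSO replicate 1 (0.0678), DMSO replicate 2 (0.069), 13 h replicate 2 (0.369) or 25 h replicate 1 (0.257), Lars without 13 h replicate 2 (0.114) or 25 h replicate 1 (0.133), Tars without 13 h replicate 1 (0.0729), 13 h replicate 2 (0.0598) or 25 h replicate 2 (0.149), and Gars without 13 h replicate 1 (0.0682), 13 h replicate 2 (0.103) or 25 h replicate 1 (0.106). The rise of Kars was lost without any library of 13 h or 25 h (adjusted p from 0.0668 to 0.129). The 13 cytosolic genes called became 7 without 13 h replicate 2 or with DESeq2, and 8 without 25 h replicate 1. Of the mitochondrial genes, Fars2 rose (0.37 ± 0.11, adjusted p = 0.0312), lost without 13 h replicate 2 (0.193) or 25 h replicate 1 (0.167), and 0 fell, also 0 at an unadjusted p under 0.05 and by DESeq2.

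The same libraries allow each cytosolic gene to be set against its mitochondrial partner within a library, which removes the scaling between libraries. Over 17 pairs in enterocytes the log2 ratio of cytosolic to mitochondrial UMIs was higher than in DMSO on average in 17 at 13 h and in 17 at 25 h, with median changes of 1.29 and 0.91. Pairs that share Eprs or Fars2 are not separate, and the comparisons share the DMSO libraries. The changes at 13 h were largest among the 17 for Eprs with Pars2 (2.46), Aars with Aars2 (2.43) and Iars with Iars2 (2.35), and were 0.53 for Vars with Vars2 and 0.54 for Tars with Tars2. For Lars with Lars2, where the partners moved apart, they were 1.59 at 13 h and 1.55 at 25 h. At 13 h both libraries were above both controls for each pair, and at 25 h the libraries overlapped those of DMSO for Vars with Vars2 and Yars with Yars2. With 2 libraries against 2, the smallest two-sided exact permutation p for a single ratio is 0.333, so no pair was tested alone.

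**Figure D3:**
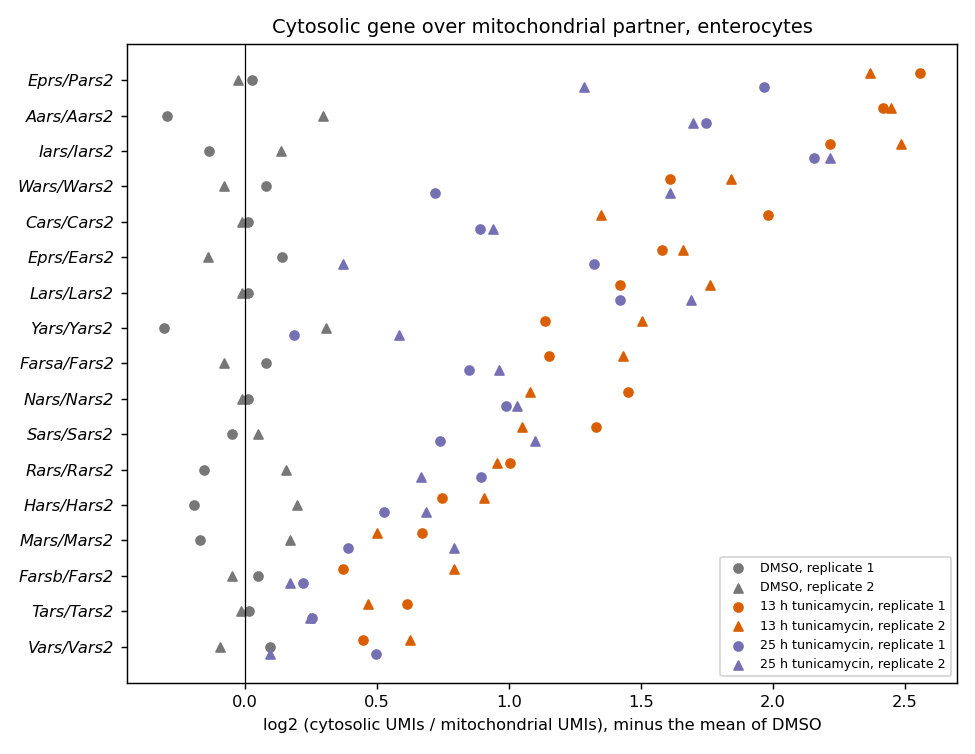
Log2 ratio of cytosolic to mitochondrial UMIs for 17 synthetase pairs in enterocytes (x axis, minus the mean of the DMSO libraries), per library; circles are replicate 1 and triangles replicate 2, grey DMSO, orange 13 h and purple 25 h. Orange points lie to the right of the grey points of the same pair, from mean changes of 0.53 for Vars with Vars2 to 2.46 for Eprs with Pars2.

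Summed over each list, enterocytes carried 661 and 667 CPM of cytosolic synthetase RNA in DMSO, 1604 and 1662 CPM at 13 h, and 1404 and 1422 CPM at 25 h. The mitochondrial list summed to 111 and 109 CPM in DMSO, 118 and 114 CPM at 13 h, and 125 and 122 CPM at 25 h. The cytosolic sum was thus 2.46-fold and 2.13-fold that of DMSO, and the mitochondrial sum 1.05-fold and 1.12-fold. The DMSO libraries held 5.92 and 6.11 cytosolic UMIs per mitochondrial UMI, those of 13 h held 13.6 and 14.6, and those of 25 h held 11.2 and 11.6.

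Seen cell by cell, the low, middle and high parts of the cytosolic distribution all lay higher after treatment. Spread from counting was not separated from differences between cells, so the share of cells that responded cannot be read. Each enterocyte was thinned to 5000 UMIs, and 2 to 13 cells per library were too shallow. The median cell then held 3 cytosolic synthetase UMIs in both DMSO libraries, 8 in both 13 h libraries and 7 in both 25 h libraries. The 10th percentile moved from 1 to 3 or 4, and the 90th from 6 to between 11 and 13. Cells with no such UMI made up 8.81% and 6.84% in DMSO and 0.293% and 0.278% at 13 h. At 25 h they were 0 of 424 and 0 of 443 cells, which allows shares of up to 0.708% and 0.677% (counting error only). Without thinning the median enterocyte held 9 and 8 cytosolic UMIs in the DMSO libraries, 26 and 27 in those of 13 h, and 23 and 25 in those of 25 h, and 0.774% and 0.586% of DMSO cells had none. For the mitochondrial list the median cell held 0 UMIs in each of the 6 libraries, and 52.8% to 60.7% of cells had none. That level is near the limit of a single UMI, so its spread between cells could not be read at this depth.

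**Figure D4:**
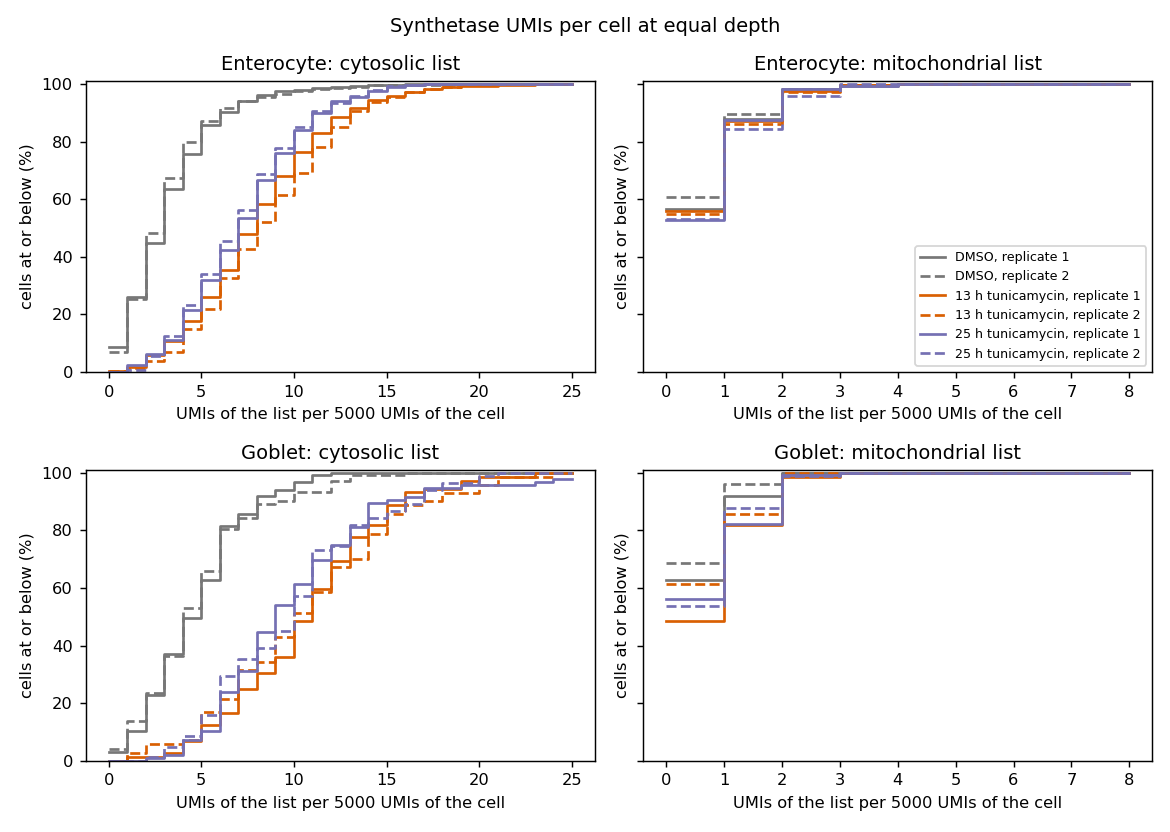
Share of cells (y axis, %) with at most the given number of UMIs (x axis) from the cytosolic (left) or mitochondrial (right) list after thinning each cell to 5000 UMIs, for enterocytes (top) and goblet cells (bottom); solid lines are replicate 1 and dashed lines replicate 2. The cytosolic curves of enterocytes move from a median of 3 UMIs in DMSO to 8 at 13 h and 7 at 25 h, whereas their mitochondrial curves lie together.

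In goblet cells after 13 h, 13 of the 20 cytosolic genes rose, 0 fell and 7 did not pass, with a median of 0.96 against -0.01 over all 7839 genes tested, of which 10.8% rose and 11.5% fell. No cytosolic gene was lower at an unadjusted p under 0.05 or by DESeq2, which found 11 higher. The highest value was that of Vars: 2.52 and 6.29 CPM in DMSO, 21.1 CPM in both 13 h libraries, and 15.6 and 19.5 CPM at 25 h. It rested on 3 and 8 UMIs in DMSO against 23 to 25 in treated libraries (2.21 ± 0.43, edgeR, adjusted p = 7.44e-04), so that it passed the filter on low counts through the treated libraries, where it is high. All treated libraries were above both controls. Iars (1.91 ± 0.26) and Eprs (1.90 ± 0.19) rose next, followed by Sars (1.43), Aars (1.41), Rars (1.36), Nars (1.32), Tars (1.15 ± 0.18), Yars (1.06), Gars (0.98), Lars (0.94), Cars (0.50) and Wars (0.50). Those not past the threshold were Farsa (0.75), Farsb (0.64), Mars (0.51), Qars (0.47), Hars (0.32), Dars (0.10) and Kars (-0.32 ± 0.26). Without DMSO replicate 2 the Wars call was lost (0.43, adjusted p = 0.0722), and without 13 h replicate 1 that of Yars (adjusted p = 0.0791). The Cars call was lost without DMSO replicate 1 (0.37, adjusted p = 0.248), 13 h replicate 1 (0.128) or 13 h replicate 2 (0.113).

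At 25 h, 15 cytosolic genes rose in goblet cells, 0 fell and 5 did not pass, with a median of 0.80 against 0.00 over all genes, of which 15.8% rose and 16.0% fell. None was lower at an unadjusted p under 0.05 or by DESeq2, which found 11 higher. Eprs (1.97 ± 0.18), Vars (1.94 ± 0.43) and Iars (1.86 ± 0.25) had the highest values. The Vars value again rested on 3 and 8 UMIs in DMSO, and Vars was tested through the treated libraries, where it is high. Sars (1.24), Aars (1.16), Lars (1.02), Yars (1.02), Rars (1.01), Nars (0.95), Farsb (0.81), Gars (0.67), Qars (0.66), Tars (0.64), Mars (0.53) and Wars (0.48) rose as well. Farsa (0.80), Hars (0.52), Cars (0.17), Dars (0.06) and Kars (-0.04) did not pass. The Mars call was lost without any library of DMSO or 25 h (adjusted p from 0.0816 to 0.203), Farsb without DMSO replicate 2 (0.0976) or 25 h replicate 2 (0.0618), Qars without DMSO replicate 2 (0.0779) or 25 h replicate 1 (0.0618), Tars without DMSO replicate 1 (0.0845) or 25 h replicate 1 (0.0982), and Wars without DMSO replicate 2 (0.0601). Between 13 h and 25 h, 0 of 20 cytosolic genes passed in goblet cells, where 2.03% of all genes rose and 1.47% fell. At an unadjusted p under 0.05, 4 were lower and 0 higher, and DESeq2 called 0.

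Of the 16 mitochondrial genes, 7 had enough UMIs in goblet cells to be tested: Cars2, Fars2, Iars2, Lars2, Mars2, Rars2 and Wars2. Of these, Cars2, Mars2 and Wars2 passed the filter on low counts only through treated libraries, where they are higher, and the values of Cars2 and Wars2 are given as a description. Cars2 was at 3.36 and 3.15 CPM in DMSO and 14.7 and 7.33 CPM at 13 h, on 4 UMIs in each DMSO library and 16 and 8 at 13 h (1.73 ± 0.58, edgeR, adjusted p = 0.0363). That call was lost without DMSO replicate 1 (0.162), DMSO replicate 2 (0.178) or 13 h replicate 1 (adjusted p = 0.395). Wars2 was at 2.52 and 3.15 CPM in DMSO and 12.9 and 8.60 CPM at 25 h, on 3 and 4 UMIs in DMSO and 19 and 11 at 25 h (1.90 ± 0.52, adjusted p = 0.00875), lost without DMSO replicate 1 (0.085), DMSO replicate 2 (0.0596) or 25 h replicate 1 (0.13). DESeq2 called 0 mitochondrial genes at either time, and 0 were lower by either tool or at an unadjusted p under 0.05. The other tested values at 13 h ran from -0.28 (Rars2) to 1.24 (Wars2, not passed). The 9 genes not tested had 0 to 12 UMIs per library. Total-count scaling moved the median of all goblet genes by 0.16 at 13 h and 0.13 at 25 h, and the percentage of called genes that were higher went from 48.4% to 68.4% at 13 h and from 49.6% to 63.8% at 25 h. The goblet markers took 196194 and 214003 CPM in DMSO and 109058 and 117137 CPM at 13 h in these cells, and the part of that fall in the scaling was not tested. In enterocytes the medians moved by 0.05 at both times.

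Goblet cells and enterocytes already differed in DMSO, which is given as a description because the authors' classes were made from the same cells. TMM scaling was done within each class, so CPM of these classes were not put on a common scale. The goblet markers took 196194 and 214003 CPM in goblet cells in DMSO, and their part in the differences was not tested. The cytosolic list summed to 1012 and 1048 CPM in goblet cells in DMSO, 2125 and 2085 CPM at 13 h, and 1887 and 1853 CPM at 25 h, and both goblet libraries in DMSO lay above both enterocyte libraries for 16 of the 20 genes, as they did for 25.9% of the 12006 genes with at least 10 UMIs. Qars and Vars lay below. Of the mitochondrial genes 1 lay above (Mars2) and 5 below, where 42.2% of all genes lay below. The gap was widest in this list for Wars, at 18.2 and 17.7 CPM in enterocytes against 172 and 156 CPM in goblet cells, a 9.17-fold difference. In goblet cells Wars was then at 231 and 235 CPM at 13 h and 225 and 235 CPM at 25 h, so that the DMSO level of goblet cells was above the treated level of enterocytes. The next ratios were 2.64 for Cars, 2.54 for Mars and 2.44 for Yars.

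Whether the response itself differed between the classes was tested as a class-by-group interaction, with library as a block. At 13 h 4 members passed, where 4.81% of 10458 genes did, and at 25 h 3 members, where 7.06% did. The rise of Wars was smaller in goblet cells by 2.13 ± 0.14 on the log2 scale at 13 h (edgeR, adjusted p = 1.66e-14) and by 1.69 ± 0.14 at 25 h (adjusted p = 1.25e-11). That of Cars was smaller by 1.30 ± 0.18 (adjusted p = 5.31e-06) and 1.16 ± 0.19, with goblet levels of 54.6 and 66.8 CPM in DMSO and 86.1 and 86.2 CPM at 13 h. That of Aars was smaller by 0.81 ± 0.17 (adjusted p = 0.00167) and 0.76 ± 0.17, with 57.1 and 64.5 CPM in DMSO and 168 and 157 CPM at 13 h. Vars was the opposite, with a rise that was larger in goblet cells by 1.59 ± 0.48 at 13 h (adjusted p = 0.0451), and its difference at 25 h did not pass (1.22 ± 0.49, adjusted p = 0.149). The Wars difference passed without each library in turn, and so did that of Cars. That of Aars was lost at 13 h without DMSO replicate 1 (adjusted p = 0.0847) or DMSO replicate 2 (0.0751), and at 25 h without DMSO replicate 1 (0.0789), DMSO replicate 2 (0.0925) or 25 h replicate 2 (0.0859). That of Vars was lost without DMSO replicate 1 (0.99, adjusted p = 0.557), 13 h replicate 1 (0.232) or 13 h replicate 2 (0.0921). Without DMSO replicate 1, 2 members passed at 13 h, as with DESeq2. Mars missed the threshold at 13 h (-0.75 ± 0.23, adjusted p = 0.0514). RNA of goblet markers was also counted in enterocytes, at 3947 to 4013 CPM in DMSO, and the part of goblet RNA in the enterocyte values of Wars was not tested.

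**Figure D5:**
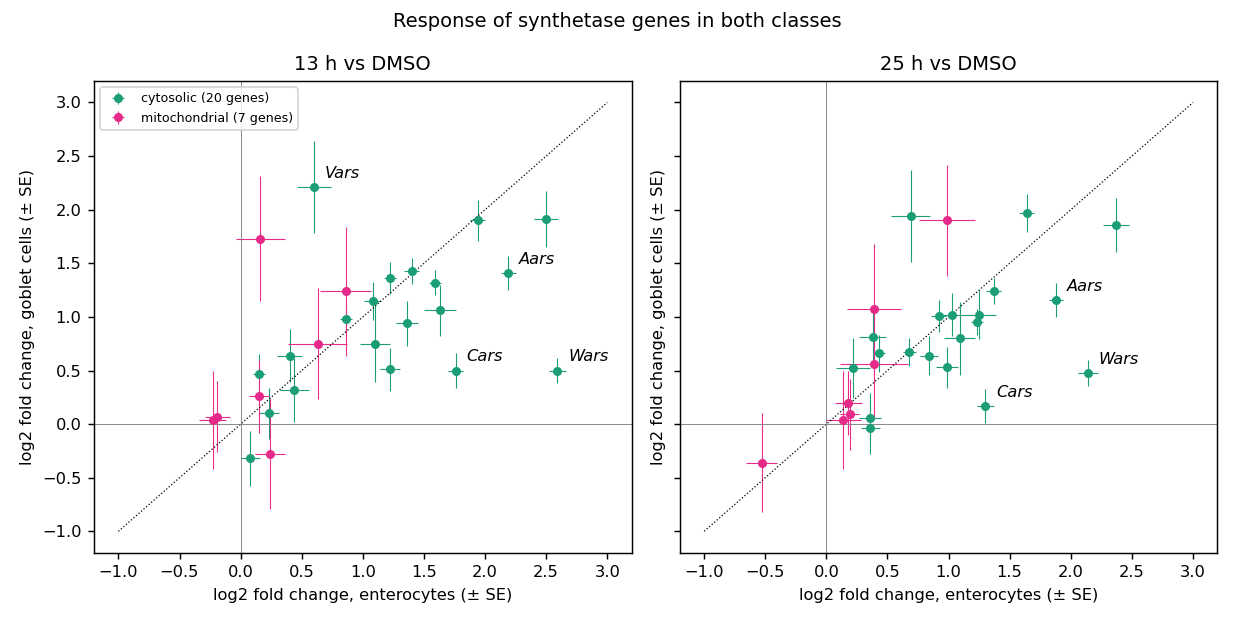
Log2 fold change against DMSO in goblet cells (y axis) and enterocytes (x axis), bars ± SE, at 13 h (left) and 25 h (right), for the 20 cytosolic and 7 mitochondrial genes tested in both classes; the dotted line marks equal change and names mark genes whose change differed between classes. Wars lies at 2.59 in enterocytes and 0.50 in goblet cells at 13 h, while Vars lies above the line.

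Cells of the authors' tuft class were too few to fit, and their values are given as measured. In that class the 8 tuft markers summed to 30.2 to 59.8 CPM in DMSO, where the enteroendocrine markers summed to 68.1 to 156 CPM and the goblet markers to 2740 to 7222 CPM. In DMSO the tuft markers were thus below the enteroendocrine markers in this class. They were still above their own sums in enterocytes (7.70 to 8.04 CPM) and goblet cells (5.04 to 11.8 CPM). The DMSO levels therefore leave the name of the class uncertain. At 13 h the tuft markers (132 to 399 CPM) exceeded the enteroendocrine markers (13.9 to 63.2 CPM). At 25 h they were at 75.5 to 293 CPM against 61.0 to 63.6 CPM. Their cytosolic list summed to 1608 and 993 CPM in DMSO, 2043 and 1802 CPM at 13 h, and 1922 and 2209 CPM at 25 h, from 299 to 1276 UMIs. All treated libraries were above both controls, with a wide gap between the controls. The marker sums of these cells also changed between the groups, and whether the same kinds of cells are compared was not tested. Their mitochondrial list gave 197 and 130 CPM, 158 and 164 CPM, and 195 and 177 CPM in the same order.

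The related lists were chosen with earlier results of these data known, and their counts are to be read against the shares of all genes that rose (23.8% at 13 h and 26.1% at 25 h in enterocytes, 10.8% and 15.8% in goblet cells). The shares that fell were 23.8% at 13 h and 24.2% at 25 h in enterocytes, and 11.5% and 16.0% in goblet cells. In enterocytes the scaffolds of the multisynthetase complex rose in 2 of 3 cases at 13 h and 3 of 3 at 25 h, with Aimp1 at 0.37 ± 0.05 and 0.75 ± 0.05 and Eef1e1 at 0.78 ± 0.10 and 0.59 ± 0.11. In goblet cells all 3 rose at both times, with Eef1e1 at 2.01 ± 0.42 and 2.33 ± 0.39. Eef1e1 had 7 and 4 UMIs in DMSO goblet cells and 18 to 34 in treated ones. It thus passed the filter on low counts through the treated libraries, where it is high. Of 7 genes of tRNA maturation and export 4 rose at each time in enterocytes. Xpot, the nuclear export receptor of tRNA, rose by 1.77 ± 0.08 at 13 h (edgeR, adjusted p = 2.07e-10) and 1.66 ± 0.08 at 25 h in enterocytes, and by 2.42 ± 0.28 and 2.13 ± 0.28 in goblet cells. Nsun2, a tRNA methyltransferase, rose by 0.44 ± 0.11 and 0.66 ± 0.12 in enterocytes. Of 5 further synthetase and editing genes 1 rose at 13 h, Prorsd1 (0.36 ± 0.08), and 2 at 25 h, with Dtd1, a D-aminoacyl-tRNA deacylase, at 1.04 ± 0.24.

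Genes of mitochondrial translation outside the synthetases were tested in the same way. Of 3 genes of the transamidase 0 passed at 13 h (1 at an unadjusted p under 0.05, Gatb, 0.52 ± 0.23) and 1 at 25 h (Gatb, 0.63 ± 0.25, adjusted p = 0.0467). Of 11 mitochondrial translation factors 2 rose and 1 fell at 13 h and 4 rose and 0 fell at 25 h. Of all genes 23.8% rose and 23.8% fell at 13 h, and 26.1% rose and 24.2% fell at 25 h. At 13 h neither count was above its share. The elongation factor partner Tsfm rose by 0.89 ± 0.13 and 0.91 ± 0.14, the ribosome recycling factor gene Mrrf by 0.74 ± 0.10 and 0.90 ± 0.11, and the elongation factor gene Tufm fell at 13 h (-0.34 ± 0.07, adjusted p = 8.53e-04). In goblet cells, where 8 of the factors were tested, 0 passed at 13 h, and at 25 h Mrrf rose (1.16 ± 0.42) and Mtfmt, the methionyl-tRNA formyltransferase gene, was lower (-1.37 ± 0.44, adjusted p = 0.0222) on 19 and 16 UMIs in DMSO and 9 and 6 at 25 h. The Mrrf value rested on 12 and 5 UMIs in DMSO and 23 and 20 at 25 h. Mrrf thus passed the filter on low counts through the treated libraries, where it is high. All 23 genes of the ATF4 branch rose at both times in both classes. The goblet count includes Phgdh (4 and 5 UMIs in DMSO), Psat1 (7 and 8), Sesn2 (2 and 7), Slc7a5 (8 and 11) and Trib3 (10 and 21). These passed the filter on low counts through treated libraries, where they are higher. In enterocytes the medians of the branch were 2.40 and 2.17. Atf4 rose by 1.92 ± 0.05 and 1.77 ± 0.05 and Atf5 by 3.50 ± 0.07 and 3.91 ± 0.07. Ddit3 went from 64.6 and 88.2 CPM to 1350 and 1280 CPM at 13 h and 758 and 786 CPM at 25 h, and Hspa5, the ER chaperone BiP, rose by 4.76 at 13 h and 4.02 at 25 h in the same cells.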

How the data were processed

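The authors deposited a matrix of raw counts, each the number of UMIs of a gene in a cell, with the library and their class in each cell name. Per the labels, libraries used 10x 3′ V2 chemistry. Cell Ranger and mm10 are named in the submitters' processing notes. Its version, the use of strand and how classes were assigned: not given in the sources used here. GENCODE vM21 matched 27722 of 27998 identifiers to symbols.

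Kept cells had at least 1000 UMIs, at least 500 genes and a mitochondrial share of UMIs of 25% or less. Scrublet (scanpy 1.11.5) called 31 cells doublets (0.605%), which were kept and left out in an alternative. Barcodes shared by more than 1 library numbered 12 and were kept apart by library. UMIs were summed per library and class, which gave 7760117 to 17429023 in enterocytes and 1052495 to 1425291 in goblet cells. All 6 libraries entered a single fit per class (edgeR 4.0.16, R 4.3.3; filterByExpr, TMM scaling, quasi-likelihood F test, Benjamini-Hochberg adjustment, threshold 0.05). CPM values are TMM-scaled within each class. The biological coefficient of variation was 0.0418 in enterocytes and 0.0788 in goblet cells. Alternatives were DESeq2 1.42.0, total-count scaling, no filter on low counts, other cell filters, thinned cells, a replicate block, fits of only the groups compared and leaving out each library. Tests were checked on simulated data. The numbers that replicates share did not pair libraries: correlations of their deviations were between -0.0281 and 0.00726.

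The 36 members and the related and marker lists were chosen with earlier results of these data known. All members are named; values per library are given for the 4 highest and 2 lowest cytosolic changes in enterocytes at 13 h, cytosolic genes not passing and mitochondrial genes passing there, Gars, Kars, Qars and members with a class difference. Of each related list up to 3 genes by p, with Atf4, Ddit3 and Hspa5, are named by fold change. Values per library of other members (Lars2, Yars2, Iars2, Wars2 and Cars2 in goblet cells) were added after their values were seen. A planned comparison of protein sequences was not run. Promoter windows are from RefSeq on GRCm38.p6. A related gene and a promoter window are not reported here.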

Additional observations from a re-analysis of the deposited data

Results flagged for a closer look

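For 4 cytosolic genes the response to tunicamycin differed between goblet cells and enterocytes by the interaction test. Goblet minus enterocyte log2 fold changes at 13 h were -2.13 for Wars, -1.30 for Cars, -0.81 for Aars and 1.59 for Vars. At 25 h they were -1.69 for Wars, -1.16 for Cars and -0.76 for Aars. The Vars value rests on 3 and 8 goblet UMIs in the DMSO libraries.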

How the results depend on the processing

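Over the alternatives run, 0 of the called member values, class differences included, changed sign. In enterocytes the number of cytosolic genes that rose stayed within 1.5 times 19 at 13 h and at 25 h in every alternative, and so did that in goblet cells at 13 h. At 25 h in goblet cells it was 9 with thinned cells, against 15. The smaller counts moved more, and the causes were not tested except that thinning and leaving out a library leave fewer UMIs or samples. For mitochondrial genes called in enterocytes, DESeq2 gave 1 at 13 h, 2 at 25 h and 0 between the times, and thinned cells gave 0, 2 and 0, against 3, 4 and 1. The stricter cell filter gave 0 between the times. Without single libraries these counts ranged from 1 to 4, from 2 to 4 and from 0 to 1, the lowest without 13 h replicate 2, without 25 h replicate 1 and without either. In goblet cells the single mitochondrial call at 13 h became 0 with DESeq2, with thinned cells and with only the groups compared, and that at 25 h became 0 with DESeq2 and thinned cells; without single libraries both ranged from 0 to 1, as given with each gene. For cytosolic genes called between 13 h and 25 h in enterocytes (13), DESeq2 gave 7, thinned cells 4, and leaving out single libraries 7 to 11; in goblet cells (0) the stricter cell filter and thinned cells gave 1 each. Members with a class difference numbered 2 with DESeq2 and 2 with thinned cells at 13 h, against 4, and 1 with thinned cells at 25 h, against 3; without single libraries they ranged from 2 to 4 at 13 h and from 2 to 3 at 25 h. The class difference of Cars, called without each single library left out, was lost with thinned cells (adjusted p = 0.162 at 13 h and 0.213 at 25 h). With the replicate number as a block, the mitochondrial count between the times in enterocytes became 0, cytosolic genes that rose at 13 h numbered 18, the class difference of Vars at 13 h was lost (adjusted p = 0.0754) and that of Mars passed, and no other count of calls moved by more than 1.5 times; the labels do not say that equal numbers share a culture, and the deviations did not correlate. Of values of members not called within a class, 98 of 1467 changed sign and 18 passed in some alternative. Mitochondrial genes are limited by depth: 10 to 443 UMIs per enterocyte library.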
